A study of Mus musculus with 2 samples.

Results

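Axon guidance ligands and receptors were examined in cultured mouse neural retinal progenitor cells (mNRPCs) and in mouse retina. Members were taken by gene symbol, with no expression value in the rule. They comprised the Eph receptors (Epha, Ephb), the ephrins (Efna, Efnb), the semaphorins of classes 3 to 7, the plexins, the neuropilins, the Slit ligands and their Robo receptors, the netrins, and the netrin receptors of the Unc5 family and Dcc. These were 69 of 31253 genes in the table, 35 of them ligands and 34 receptors, in 17 families.

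RNA sequencing had been done on 1 mNRPC library and 1 retina library, both from the strain C57BL/6. The culture had been started from neural retinas of adult mice and kept, as the methods describe, on Matrigel in N2/B27 medium that contained the growth factor bFGF and the compound CHIR99021, which blocks the kinase GSK3. The labels put the sequenced culture at passage 24 and give no age and no treatment for the retina tissue. There were no replicates, the cells were 1 line at 1 passage, and the tissue was a mixture of many cell types, so no difference described here could be set against a spread between samples and no test between the groups was made.

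Guidance ligands are secreted or cell-surface proteins that attract or repel a growing axon or a migrating cell, and each ligand family acts through its own receptors. Ephrins are bound to the membrane and signal through Eph receptor tyrosine kinases on the neighbouring cell, semaphorins through plexins with or without a neuropilin, Slits through Robos, and netrins through Dcc and the Unc5 receptors. In the retina these proteins are known for guiding ganglion cell axons out of the eye and to their targets, for ordering axons by their position in the retina, and for keeping the synaptic layers apart, and many of them also act in blood vessels and epithelia.

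The values were FPKM, fragment numbers corrected for how long a transcript is and how many fragments the library had, summed over the transcript rows of a gene, so levels of different genes could be compared per length. The depth, estimated from the lowest FPKM values, was 6.47e+06 fragments for mNRPCs and 5.07e+06 for retina. A transcript of 4000 bp then reached 3 fragments at 0.116 FPKM in mNRPCs and at 0.148 FPKM in retina, and levels this low are barely measured. For a level between 1 and 3 fragments the fold is given with its wide counting interval, and for one under 1 fragment no fold is given. A level of 0 can also be a failed estimate and is described as listed at 0. Folds are ratios of FPKM, and the 95% intervals beside them are exact binomial intervals on estimated fragments, which cover counting error only. Of 10 progenitor markers, 7 reached 1 FPKM in mNRPCs, among them Pax6, Six3 and Sox2, whereas Rax and Six6 were listed at 0. Of 6 rod markers all were detected in retina, with a summed level of 20918 FPKM against 9.76 in mNRPCs.

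Guidance genes differed in both directions between the cultured cells and the tissue. Of the 69 members, 41 reached 1 FPKM in mNRPCs and 55 in retina, with 36 detected in both, 5 in mNRPCs alone and 19 in retina alone. Among the 60 members that reached 1 FPKM in either library these were 68.3% in mNRPCs and 91.7% in retina, against 80.4% and 91.7% of all genes compared, so the retina share was that of the background. At a limit of 5 FPKM the order turned, with 28 of these members (46.7%) in mNRPCs and 19 (31.7%) in retina, against 61.5% and 66.1% of all genes compared. Of the same 60 members 8 (13.3%) were listed at 0 in mNRPCs and none in retina, against 7.96% and 1.73% of all genes compared. In bulk samples of this kind, fewer cells of a type and less RNA per cell cannot be told apart. At 10 FPKM or more stood 18 of the 60 members in mNRPCs (30%) and 7 in retina (11.7%), again the opposite order to that at 1 FPKM. Of all genes compared 46.5% (6414) and 48.6% (6699) reached that level, so the members lay below the background in both libraries. The median level over the 69 members was 2.43 FPKM in mNRPCs and 2.57 in retina. The highest member was Plxnb2 at 51.7 FPKM in mNRPCs and Sema7a at 24.2 FPKM in retina.

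The log2 ratio of a member compares its mNRPC level with its retina level after 1 FPKM was added to each, which makes changes of low genes look smaller. A member is called higher or lower in mNRPCs when this ratio was at least 1 in size and its level reached 1 FPKM in either library. Of the 60 members that reached this level, 24 were higher (40%), 24 were lower (40%) and 12 lay within this limit, against backgrounds of 24.5% higher and 30.0% lower over the 13780 genes compared. The filter admits genes through the library in which they are high, so these shares describe the members that passed. The other 9 members (Epha1, Ntn3, Ntn5, Plxnb3, Robo3, Robo4, Sema3g, Slit1 and Slit3) stayed below 1 FPKM in both libraries. The median log2 ratio was −0.07 for the members and −0.12 for all genes. Nearest to the limit were Sema4c, not called at a log2 ratio of 0.97, and Epha6 and Plxna2, called lower at −1.05 and −1.10.

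**Figure D1:**
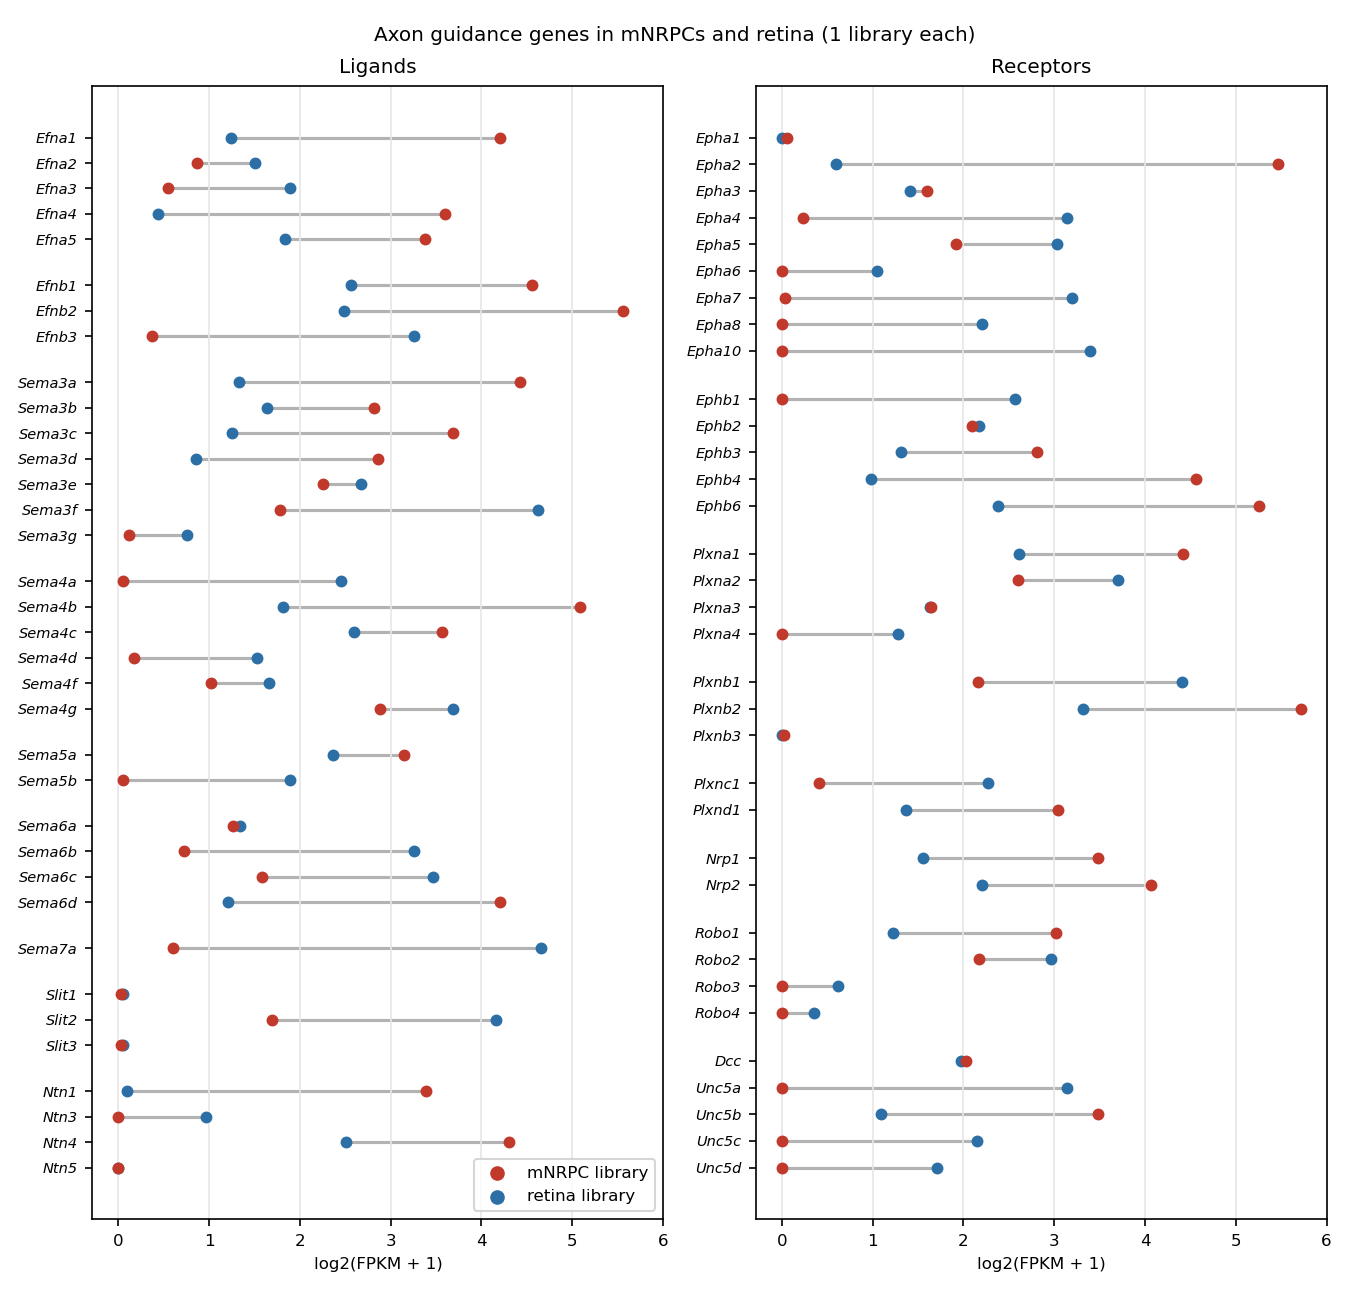
Level of each of the 69 members in the mNRPC library (red) and in the retina library (blue), as log2(FPKM + 1) on the horizontal axis, with 1 library per group and a grey line joining the points of a gene, ligands on the left and receptors on the right. Members of a family often lie in opposite order, as with Epha2, far higher in mNRPCs, and Epha7 and Epha10, near 0 in mNRPCs.

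**Figure D2:**
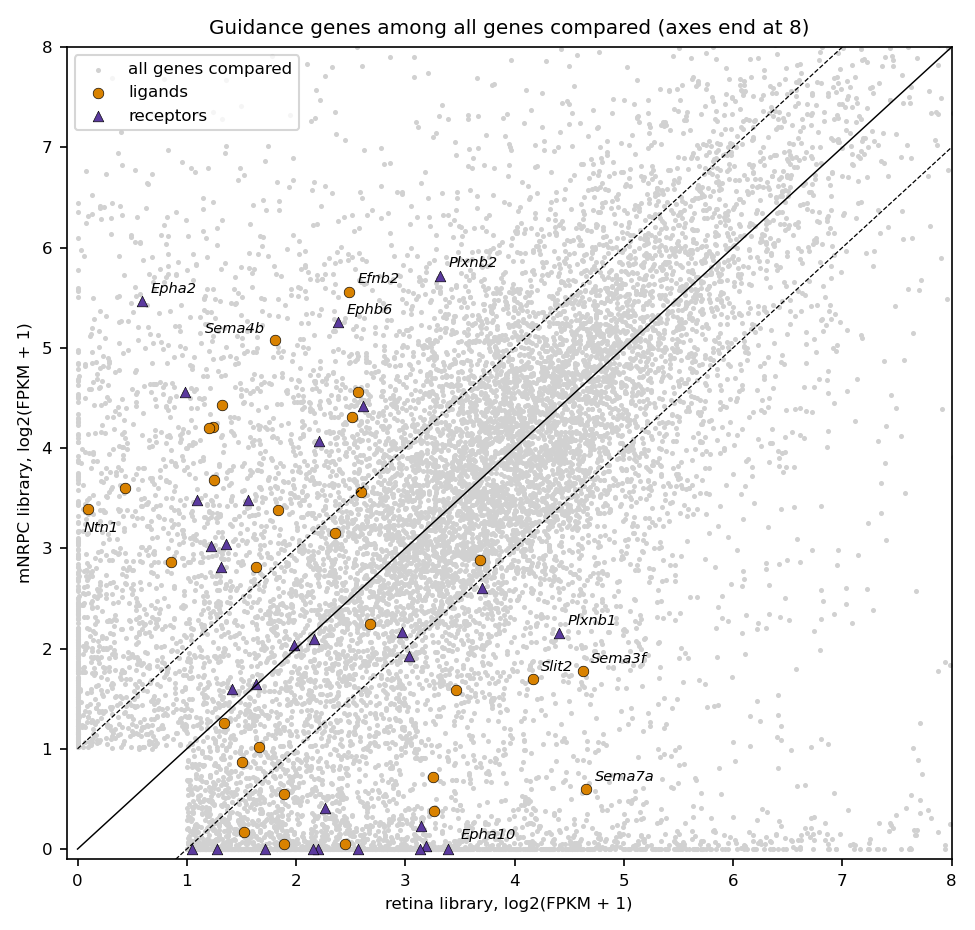
Level in mNRPCs (vertical axis) against level in retina (horizontal axis), both as log2(FPKM + 1), for the 13780 genes compared (grey), ligands (circles) and receptors (triangles). The solid line marks equal levels and the dashed lines a log2 ratio of 1 in size; 48 of 60 members that passed lie on or outside the dashed lines, and receptors listed at 0 in mNRPCs line the bottom edge.

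Ligands summed to 271 FPKM in mNRPCs and 166 FPKM in retina, a ratio of 1.63, and receptors to 257 and 142 FPKM, a ratio of 1.81. The FPKM sum over all rows was itself larger in mNRPCs, at a ratio of 1.43. With each library rescaled to a common FPKM sum the ligand ratio was 1.11 and the receptor ratio 1.23. Of the 30 ligands compared 13 were higher (43.3%) and 10 lower (33.3%). Of the 30 receptors compared 11 were higher (36.7%) and 14 lower (46.7%). Over all genes compared 24.5% were higher and 30.0% lower, so the ligand share called lower was near the background. In 10 of the 17 families the summed level stayed on the same side of retina under each of 3 other scalings of the libraries. In mNRPCs the sums were above those of retina for Ephb, Efna, Efnb, Sema4, Plxnb, Nrp and Ntn and below them for Sema7, Slit and the group of Unc5 and Dcc. For Epha, Sema3, Sema5, Sema6, Plxna, Robo and the pair Plxnc1 and Plxnd1 the side changed with the scaling, and for these the description rests on single genes.

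In mNRPCs most of the EphA total came from 1 member. Epha2, the EphA receptor best known from epithelia and proliferating cells, was at 43.2 FPKM in mNRPCs and at 0.507 FPKM in retina, an 85.2-fold higher level (95% counting interval 46.4 to 179) and the largest log2 ratio among the members, 4.87. It made up 89.5% of the EphA total in mNRPCs and 1.28% in retina. In retina, by contrast, the total was spread over Epha10 (9.50 FPKM), Epha7 (8.13), Epha4 (7.82), Epha5 (7.20), Epha8 (3.60), Epha3 (1.66) and Epha6 (1.07).

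Of these, Epha6, Epha8 and Epha10 were listed at 0 in mNRPCs. Epha10, which lacks kinase activity, held the largest EphA share in retina, 24.1%. Epha7 was at 0.022 FPKM in mNRPCs, less than 1 estimated fragment, against 196 fragments in retina, and its log2 ratio was −3.16. Epha4, which also binds B-class ephrins, was at 0.171 FPKM in mNRPCs, 7.005 fragments, and was 45.7-fold lower than in retina (interval 21.9 to 115). Epha5, a receptor graded across the retina in development, was 2.58-fold lower at 2.79 FPKM, and Epha3 stood at 2.03 FPKM with a log2 ratio of 0.19. In all, 1 EphA member was higher (12.5%), 6 were lower (75%) and 1 lay within the limit. Over all genes compared 24.5% were higher and 30.0% lower. Epha6 was called on a low level, and with curated transcript rows alone its log2 ratio was −0.96.

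EphB receptors were higher in sum, 69.1 FPKM in mNRPCs against 15.1 in retina, a ratio of 4.58. Ephb6, the other kinase-inactive Eph receptor, led in mNRPCs at 37.2 FPKM against 4.23 in retina, 8.80-fold higher (interval 6.97 to 11.1). Ephb4, known as the venous receptor of ephrin-B2, was at 22.6 and 0.979 FPKM, 23.1-fold higher (15.3 to 38.3), and had the largest log2 ratio of the family, 3.57. Ephb3 was at 6.01 and 1.48 FPKM, 4.06-fold higher (2.79 to 6.26). Ephb2 showed no such difference, with 3.28 FPKM in mNRPCs and 3.49 in retina and a fold of 0.939 (0.760 to 1.15). Ephb1, known for turning ganglion cell axons at the optic chiasm, was the leading EphB receptor of retina at 4.92 FPKM, 32.6% of the family, and was listed at 0 in mNRPCs (log2 ratio −2.57).

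Ephb4 and Ephb6 in mNRPCs stood beside near absence of endothelial markers. None of 6 endothelial markers reached 1 FPKM there, with a summed level of 0.132 FPKM and Cdh5, Cldn5 and Emcn listed at 0, against 39.2 FPKM in retina, of which Kdr alone held 29.5. Of 8 pericyte and fibroblast markers 4 were detected in the culture at 1 FPKM or more and 3 in the tissue. Their sum was 458 FPKM in mNRPCs against 14.0 in retina, of which Col3a1 alone held 450. The mural cell marker Pdgfrb was at 4.49 FPKM in mNRPCs against 1.24 in retina, and Col1a1 at 1.35 against 0.552. Lower in mNRPCs were Rgs5 (listed at 0 against 8.16), Col1a2 (0.084 against 0.952), Cspg4 (0.015 against 0.227) and Dcn (1.964 against 2.58). Lum was listed at 0 in both libraries. The part of such cells in the levels of the guidance genes was not tested.

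The ephrins, the ligands of these receptors, were also higher in sum. Of 8 ephrins compared 5 were called higher (62.5%) and 2 lower (25%). Over all genes compared these shares were 24.5% and 30.0%, so the share called lower was near the background. Efnb2, the ephrin-B2 ligand of Ephb4, was the highest ligand of mNRPCs at 46.2 FPKM against 4.59 in retina, 10.1-fold higher (8.27 to 12.3). Efnb1 was at 22.5 and 4.91 FPKM, 4.58-fold higher (3.62 to 5.88). Efnb3, a midline ligand of the nervous system, went the other way, at 0.297 FPKM in mNRPCs (6.12 fragments) and 8.57 FPKM in retina, 28.9-fold lower (13.1 to 81.4). The leading B-class ephrin was therefore Efnb2 in mNRPCs, with 67.0% of the class against 25.4% in retina, and Efnb3 in retina, with 47.4% against 0.431% in mNRPCs.

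Among the A-class ephrins, which are held in the membrane by a lipid anchor, Efna1 was at 17.5 FPKM in mNRPCs against 1.37 in retina, 12.8-fold higher (6.75 to 25.3). Efna4 was at 11.1 and 0.350 FPKM, the latter 2.84 estimated fragments, which gives a fold of 31.7 with an interval from 10.02 to 148. Efna5, a ligand that orders retinal axons in their target, was at 9.40 and 2.57 FPKM, 3.66-fold higher (2.65 to 5.23). Efna3 was lower, with 0.459 FPKM in mNRPCs and 2.71 in retina, a 5.90-fold difference (2.53 to 15.7), and Efna2 lay within the limit at 0.829 and 1.85 FPKM.

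Neighbouring ephrin genes differed in opposite directions. Efna1, Efna3 and Efna4 lie within 66.3 kb of chromosome 3 in the reference assembly GRCm38.p6, with gaps of 32.9 and 10.5 kb and no other protein-coding gene between them. The outer genes, Efna1 and Efna4, were higher in mNRPCs (log2 ratios 2.96 and 3.16), and Efna3 between them was lower (−1.35). Of 9 further coding genes around the cluster that reached 1 FPKM in either library, 8 were higher and Trim46 lay within the limit at −0.21. Over all genes compared 24.5% were higher and 30.0% lower. Among the 8, Muc1 (1.06), Dpm3 (1.19) and Zbtb7b (1.39) lay nearest to the limit, and whether the count of 8 holds with other scalings was not tested. The opposite signs of Efna3 and of its neighbours Efna1 and Efna4 held with pseudocounts of 0.1 and 0.5 and under the other scalings, which were not applied to the further genes.

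**Figure D3:**
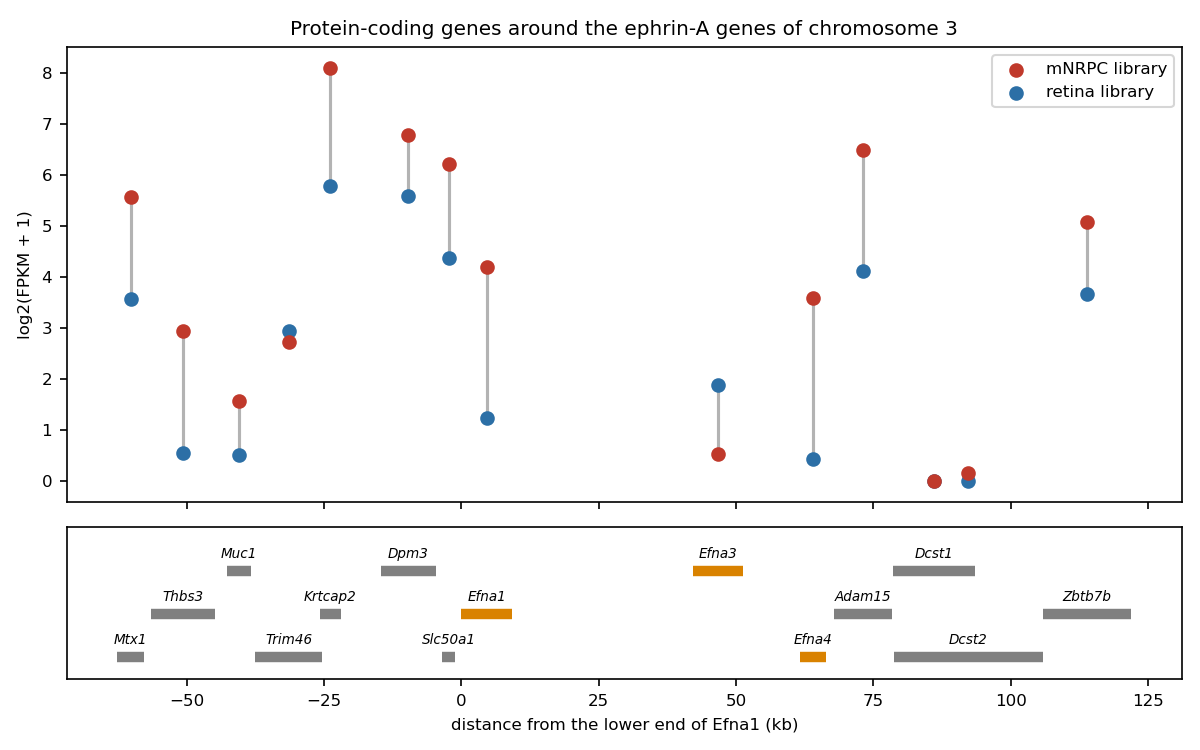
Level of protein-coding genes around the ephrin-A cluster of mouse chromosome 3 in mNRPCs (red) and retina (blue), as log2(FPKM + 1) in the upper panel, with the genes drawn to scale below by distance in kb from the lower end of Efna1 and the ephrins in orange. Efna3 is the gene in this stretch that lies lower in mNRPCs past the limit, between Efna1 and Efna4, which lie higher.

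The promoter windows of these ephrins are shown because neighbouring genes differed, and those of Epha2 and Epha7 because they stand for the EphA receptor that was higher and one that was lower. Each covers 250 bases before and 50 bases after an annotated start, 5′ to 3′ on the gene's strand, from RefSeq, assembly GRCm38.p6. Where a gene has several starts 1 is shown, and these data do not say which start was used. Capitals mark matches on either strand to CTTTGA (TCF/LEF), TGANTCA (AP-1), GGAATG (TEAD), TGGGAA (CSL) and TAATCC (OTX/CRX), none of which overlap here.
Epha2 promoter, chr4:141300971-141301270, plus strand: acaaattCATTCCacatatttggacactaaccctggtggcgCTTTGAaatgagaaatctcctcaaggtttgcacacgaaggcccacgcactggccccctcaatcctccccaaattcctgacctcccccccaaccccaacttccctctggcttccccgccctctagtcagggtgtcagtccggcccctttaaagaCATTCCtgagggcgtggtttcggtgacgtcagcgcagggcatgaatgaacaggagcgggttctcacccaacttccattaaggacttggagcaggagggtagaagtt
Epha7 promoter, chr4:28812881-28813180, plus strand: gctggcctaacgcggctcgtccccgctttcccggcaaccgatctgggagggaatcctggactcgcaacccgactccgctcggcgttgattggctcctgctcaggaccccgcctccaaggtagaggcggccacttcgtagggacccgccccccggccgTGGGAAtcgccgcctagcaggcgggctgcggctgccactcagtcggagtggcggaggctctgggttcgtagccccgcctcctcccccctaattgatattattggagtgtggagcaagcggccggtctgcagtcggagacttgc
Efna1 promoter, chr3:89279596-89279895, minus strand: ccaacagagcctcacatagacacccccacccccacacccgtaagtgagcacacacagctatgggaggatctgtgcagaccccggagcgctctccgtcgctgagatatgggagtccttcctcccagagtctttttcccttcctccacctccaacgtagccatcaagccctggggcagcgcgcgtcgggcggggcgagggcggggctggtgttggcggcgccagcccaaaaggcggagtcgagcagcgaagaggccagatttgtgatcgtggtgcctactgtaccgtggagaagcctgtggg
Efna3 promoter, chr3:89322890-89323189, minus strand: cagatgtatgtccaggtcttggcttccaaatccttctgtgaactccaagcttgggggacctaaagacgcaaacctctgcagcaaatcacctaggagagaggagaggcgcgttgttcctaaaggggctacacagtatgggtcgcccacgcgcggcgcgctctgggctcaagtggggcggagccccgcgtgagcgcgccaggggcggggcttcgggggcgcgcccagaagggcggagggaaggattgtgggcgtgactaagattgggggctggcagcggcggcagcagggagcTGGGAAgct
Efna4 promoter, chr3:89337979-89338278, minus strand: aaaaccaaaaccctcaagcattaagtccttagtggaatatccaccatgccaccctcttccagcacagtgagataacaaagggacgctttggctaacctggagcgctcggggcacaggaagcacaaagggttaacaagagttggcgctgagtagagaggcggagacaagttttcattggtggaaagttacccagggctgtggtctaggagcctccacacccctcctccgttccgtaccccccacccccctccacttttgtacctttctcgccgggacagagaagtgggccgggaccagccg

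The Epha2 window held 1 TCF/LEF and 2 TEAD matches and 10 CpG dinucleotides, the Epha7 window 1 CSL match and 28 CpG. The Efna1 window held 20 CpG and none of these 5 motifs. The Efna3 window shown held 1 CSL match and 22 CpG, whereas that of its other listed start held no match and 34 CpG. The Efna4 window held no match and 11 CpG. Windows were found for 59 of the 69 members, 75 in all. Of these, 6.67% held a TCF/LEF match, 4% an AP-1, 12% a TEAD, 22.7% a CSL and 2.67% an OTX/CRX match, against 16.0%, 7.81%, 14.7%, 25.6% and 7.06% of all 32851 windows of the same length. The GC-rich GGGCGG (SP/KLF, not in capitals) was in 70.7% of member windows and 35.7% of all. The members' windows were also richer in CpG, with a median of 19 against 7 in all windows, and it was 20 for higher and 23 for lower members. All windows came from 27025 genes and were not limited to the 13780 genes compared. Whether these contrasts would hold against a set of genes more like the members was not tested. These matches describe the letters of the windows and were not read as binding.

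Class 3 semaphorins are secreted and bind neuropilins. Of 7 members 4 were higher in mNRPCs, 1 was lower, 1 lay within the limit and Sema3g was below 1 FPKM in both libraries. Of the 6 compared, 66.7% were higher and 16.7% lower, against 24.5% and 30.0% of all genes compared. Sema3a, the classical growth cone repellent, led in mNRPCs at 20.5 FPKM against 1.51 in retina, 13.6-fold higher (9.95 to 19.1), with a log2 ratio of 3.10 that was 2.26 when the highest row alone was read. Sema3c was at 11.8 and 1.38 FPKM (log2 ratio 2.43), and Sema3d at 6.26 and 0.806 FPKM (2.01). Sema3b was at 6.04 and 2.11 FPKM, a log2 ratio of 1.18 that turned to −0.40 with curated rows alone. Sema3e, which binds Plxnd1 without a neuropilin, was at 3.76 and 5.38 FPKM (−0.42).

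Sema3f, the ligand of Nrp2, held 66.6% of the class in retina and 4.77% in mNRPCs. It was at 23.7 FPKM in retina and 2.43 in mNRPCs, 9.76-fold lower (7.37 to 13.3), with a log2 ratio of −2.85 that was −3.61 with curated rows. What remained in mNRPCs was assigned to rows that RefSeq describes as non-coding, nearly all of the gene's level there against 52.8% in retina. Reads that fit several transcripts had been divided among them by estimation, so these shares are less certain than the gene's total. Sema3b and Sema3f lie 72.3 kb apart on chromosome 9, with Gnai2, Slc38a3 and Gnat1 between them.

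Semaphorins of classes 4 to 7 are bound to the membrane. In class 4, Sema4b was at 32.8 FPKM in mNRPCs against 2.51 in retina, 13.1-fold higher (9.88 to 17.9), and held 64.1% of the class in mNRPCs against 8.98% in retina. Sema4c was at 10.8 and 5.04 FPKM and Sema4f at 1.03 and 2.17 FPKM, both within the limit. Sema4g, the leading class 4 member of retina with 42.5% of the class, was at 11.9 FPKM there and at 6.36 FPKM in mNRPCs, a fold of 0.535 (0.442 to 0.646) and a log2 ratio of −0.81. Non-coding rows held 59.5% of the Sema4g level in retina, and the ratio was −0.13 with curated or with coding rows alone, −2.05 with the highest row and −1.39 with a common sum, the last 2 called lower.

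Sema4a, a semaphorin known for its need in photoreceptor survival, was at 0.038 FPKM in mNRPCs, less than 1 fragment, and at 4.46 FPKM in retina (log2 ratio −2.40). Sema4d, a ligand of Plxnb1, was at 0.124 and 1.88 FPKM, 15.1-fold lower (4.99 to 52.6). Neither was called, at −0.98 and −0.97, when only the highest row of each gene was read, and with curated rows alone Sema4a was at −1.19.

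Class 5 semaphorins are known for keeping neurites of inner retinal cells in the inner plexiform layer. Sema5a was at 7.87 FPKM in mNRPCs against 4.13 in retina, a fold of 1.91 (1.63 to 2.24) and a log2 ratio of 0.79, within the limit, which was 0.35 with curated rows, 0.34 with a common sum and 1.05, called higher, with the highest row alone. Sema5b was at 0.036 FPKM in mNRPCs, 1.001 fragments, and at 2.72 FPKM in retina, 76.4-fold lower with a wide interval of 13.2 to 3075. Class 6 had almost equal sums, 21.4 FPKM in each library, from different members. Sema6d was at 17.4 FPKM in mNRPCs against 1.30 in retina, 13.4-fold higher (9.61 to 19.3), and made up 81.2% of the class in mNRPCs against 6.09% in retina. Sema6c was at 1.995 and 10.03 FPKM, 5.03-fold lower (3.61 to 7.22), and Sema6b at 0.645 and 8.53 FPKM, 13.2-fold lower (7.66 to 23.8). Sema6a, the partner of Plxna2 and Plxna4 in retinal layering, was nearly level at 1.40 and 1.52 FPKM.

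The log2 ratio of Sema6c, −1.88 as deposited, was −0.82 with curated rows alone, which lost the call, −1.05 with versioned accessions and −2.74 with coding rows alone, and 69.3% of its level in mNRPCs lay on non-coding rows against 2.19% in retina. Sema7a, which has a lipid anchor and binds Plxnc1, was the most abundant member of retina. It was at 24.2 FPKM there and at 0.516 FPKM in mNRPCs, 47.0-fold lower (25.99 to 94.9), and its log2 ratio of −4.06 was the smallest among the members. With a pseudocount of 0.1 Epha10 (−6.59), Unc5a, Epha7 and Ephb1 lay below Sema7a (−5.30).

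Plexins carry the semaphorin signal into the cell. Plxnb2, the highest member in mNRPCs, was at 51.7 FPKM against 8.98 in retina, 5.75-fold higher (5.09 to 6.51), and held 93.7% of the class B total against 30.8% in retina. Plxnb1 was the leading class B plexin of retina, at 20.2 FPKM against 3.46 in mNRPCs, 5.84-fold lower (5.004 to 6.88). With curated rows alone the log2 ratio of Plxnb1 was −1.12 rather than −2.25, and its leading row in both libraries was a predicted transcript. Class A showed the same exchange at smaller size. Plxna1 was at 20.3 and 5.13 FPKM, 3.96-fold higher (3.44 to 4.58), and Plxna2 at 5.08 and 12.03 FPKM, 2.37-fold lower (2.08 to 2.696).

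Plxna3 was level at 2.12 and 2.11 FPKM, and Plxna4 was listed at 0 in mNRPCs and at 1.42 FPKM in retina. Plxnd1, a receptor of the vascular bed, was at 7.24 and 1.57 FPKM, 4.61-fold higher (3.46 to 6.26). Plxnc1, the receptor of Sema7a, was at 0.327 and 3.82 FPKM, 11.7-fold lower (7.03 to 22.01). Both neuropilins, the binding subunits for class 3 semaphorins and VEGF, were higher. Nrp2 was at 15.8 FPKM in mNRPCs against 3.62 in retina, 4.36-fold higher (3.60 to 5.38), and Nrp1 at 10.1 and 1.94 FPKM, 5.22-fold higher (3.69 to 7.77). The neuropilin pair was among the families in which every member compared was higher, the other being the netrins.

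**Figure D4:**
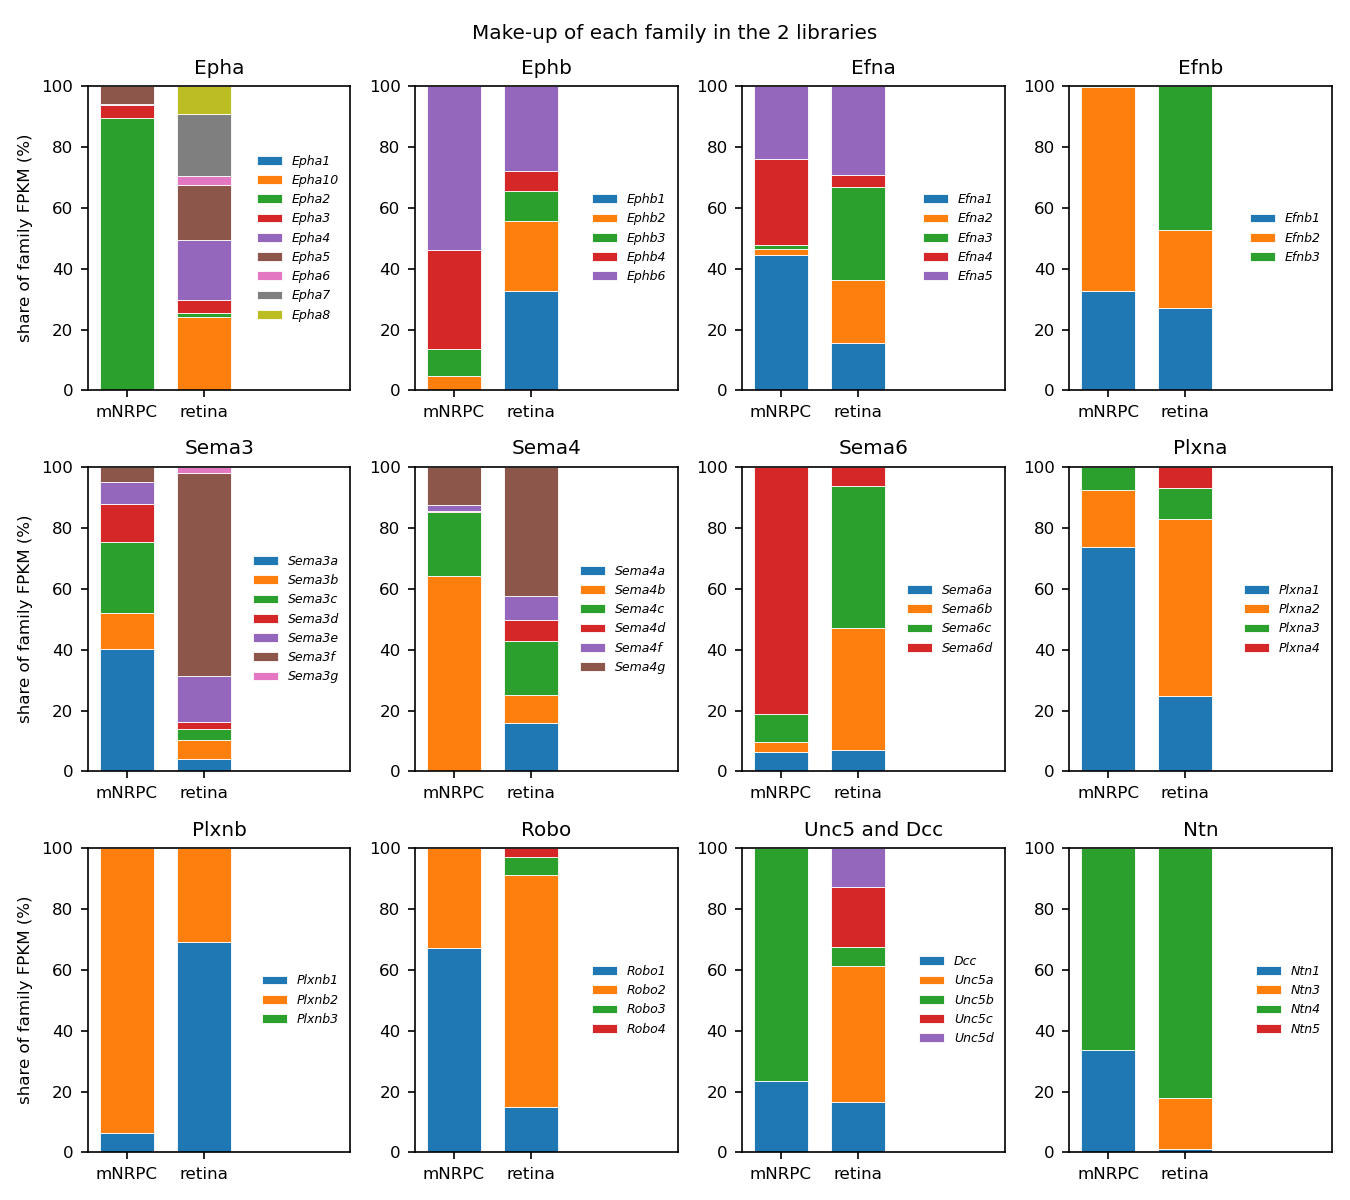
Share of each member in its family's summed FPKM (vertical axis, percent) in the mNRPC and the retina library, for 12 family panels with 1 stacked bar per library. Epha2 fills 89.5% of the EphA bar of mNRPCs and Plxnb2 93.7% of the Plxnb bar, while in retina Sema3f fills 66.6% of the Sema3 bar and Ntn4 82.1% of the netrin bar.

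Slit ligands were represented by Slit2 alone, as Slit1 and Slit3 stayed under 1 fragment in both libraries. Slit2, the main Slit of the developing retina and optic chiasm, was at 16.9 FPKM in retina and 2.24 in mNRPCs, 7.57-fold lower (6.27 to 9.16). Its leading row differed between the libraries, and with the highest row alone its log2 ratio was −3.29 rather than −2.47. Of its receptors, Robo1 was at 7.12 FPKM in mNRPCs against 1.33 in retina, 5.34-fold higher (3.98 to 7.32). Robo2, the Robo best known from retinal ganglion cells, was at 3.49 and 6.81 FPKM (log2 ratio −0.80), and it held 76.1% of the family in retina against 32.9% in mNRPCs.

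The Robo2 value rested on predicted transcripts. With curated rows alone Robo2 was at 0.408 FPKM in mNRPCs against 0.022 in retina, which turned the log2 ratio to 0.46, whereas with the highest row alone (−1.73) and with a common FPKM sum (−1.39) Robo2 was called lower. Robo3 and Robo4 were listed at 0 in mNRPCs and at 0.530 and 0.273 FPKM in retina.

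Netrins are laminin-related attractants and repellents. Ntn1, the netrin that leads ganglion cell axons into the optic nerve head, was at 9.51 FPKM in mNRPCs and at 0.070 FPKM in retina, the latter 2.05 estimated fragments, for a fold of 135 with an interval from 38.0 to 1146. Ntn4, a netrin of basement membranes, was the leading netrin in both libraries at 18.8 and 4.70 FPKM, 4.01-fold higher in mNRPCs (3.17 to 5.09). Ntn3 was listed at 0 in mNRPCs and at 0.954 FPKM in retina, and Ntn5 was listed at 0 in both.

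Of 5 netrin receptors 3 were lower (60%) and 1 was higher (20%), against 30.0% and 24.5% of all genes compared. Unc5a, Unc5c and Unc5d, which mediate repulsion by netrin, were listed at 0 in mNRPCs and at 7.81, 3.44 and 2.28 FPKM in retina. Unc5b, known also from blood vessels, was at 10.2 and 1.13 FPKM, 9.001-fold higher in mNRPCs (6.26 to 13.0), and held 76.7% of the group in mNRPCs against 6.42% in retina. Dcc, the attractive netrin receptor, was level at 3.09 and 2.94 FPKM, a fold of 1.05 (0.846 to 1.30). With curated rows alone Unc5a was at 2.12 FPKM in retina, which moved its log2 ratio from −3.14 to −1.64, and the Unc5d call was lost at −0.49.

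Receptors listed at 0 in mNRPCs were Epha6, Epha8, Epha10, Ephb1, Plxna4, Robo3, Robo4, Unc5a, Unc5c and Unc5d, 10 of 34. Of the 35 ligands 2 were listed at 0 there, and in retina 2 receptors and 1 ligand were. Robo3 and Robo4 were below 1 FPKM in both libraries. Among the 60 members compared 8 (13.3%) were listed at 0 in mNRPCs, against 7.96% of all genes compared. The difference between receptors and ligands was not tested. Several of the receptors listed at 0 in mNRPCs are known from ganglion cells and other retinal neurons. All 7 ganglion cell markers were detected in retina, with a summed level of 509 FPKM, and 2 of 7 in mNRPCs at 4.03 FPKM, with Rbpms and Sncg listed at 0. Of 5 amacrine and horizontal cell markers 5 were detected in retina and 1 in mNRPCs, with sums of 162 and 7.23 FPKM, and of 4 bipolar markers 4 and 1, with sums of 133 and 3.07 FPKM. Of 5 Müller glia markers 5 and 2 were detected, with sums of 1789 and 35.8 FPKM, and of 3 astrocyte markers 2 and 1, with sums of 6.63 and 1.76 FPKM. Pigment epithelium markers summed to 14.3 FPKM in retina and 0.197 in mNRPCs, and microglia markers to 1.78 and 1.23 FPKM. How far these cells account for the levels of the guidance genes in retina was not tested.

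Ligands and receptors known to bind each other were set side by side in 27 pairs, chosen with earlier results of these data known. In 7 pairs both partners were higher in mNRPCs, in 4 both were lower, in 6 they went in opposite directions, and in 10 one or both lay within the limit. Of the ligands compared 43.3% were higher and 33.3% lower, and of the receptors 36.7% and 46.7%. Over all genes compared these shares were 24.5% and 30.0%. The number of pairs of each kind to be expected from such shares was not worked out. Pairs with both partners higher were Efna1 and Epha2, Efnb1 and Ephb3, Efnb2 and Ephb4, Sema3a and Nrp1, Sema3c and Nrp2, Sema6d and Plxna1, and Ntn1 and Unc5b. Pairs with both lower were Efnb3 and Epha4, Sema4a and Plxnb1, Sema4d and Plxnb1, and Sema7a and Plxnc1. Opposite pairs included Slit2 (log2 ratio −2.47) with Robo1 (1.8), Sema3f (−2.85) with Nrp2 (1.86), and Efnb2 (3.08) with Ephb1 (−2.57). Some genes stand in several pairs, which are therefore not independent of each other. The counts also depend on which pairs were chosen. Ntn1 (3.30) with Unc5a (−3.14) or with Unc5d (−1.71), which went in opposite directions, was not among them.

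**Figure D5:**
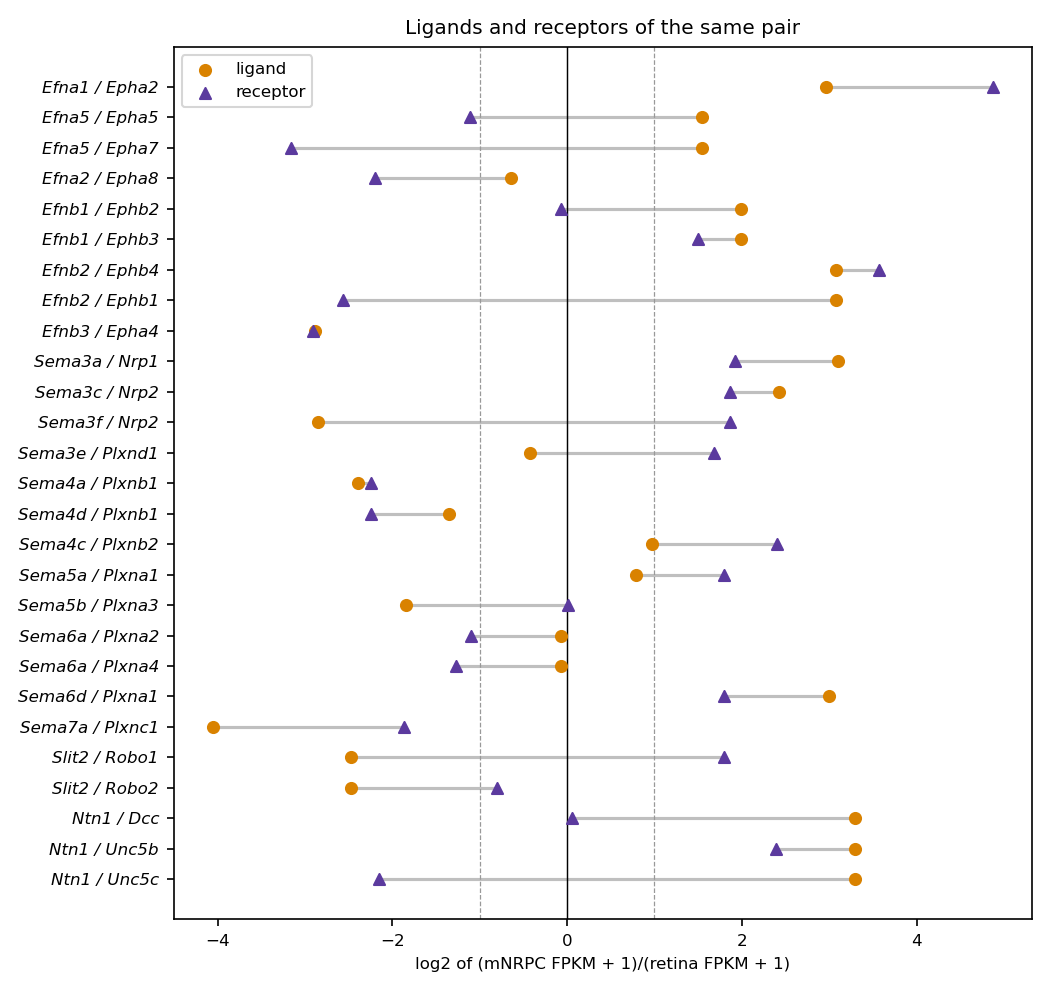
Log2 ratio of mNRPC over retina levels on the horizontal axis for the ligand (circle) and the receptor (triangle) of each of 27 known pairs, with dashed lines at a ratio of 1 in size. The pair Efna1 and Epha2 lies farthest to the right, and Sema7a with Plxnc1 to the left.

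Many members had several transcript rows. Among 28 members with more than 1 row and at least 1 FPKM in each library, the row with the largest share was the same in mNRPCs and retina for 16 and differed for 12. Efnb2 was carried by the same row in both, with nearly all of its level in mNRPCs and 95.5% in retina. Sema6d differed, with NM_199240 leading in mNRPCs at 42.6% and listed at 0 in retina, where NM_199241 led at 59.9%. In Robo1 NM_019413 held 67.2% in mNRPCs and 13.3% in retina. These shares depend on how reads were divided among the rows and were not called as isoform changes.

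Genes that act beside or downstream of these receptors were taken as a list of 67 co-receptors, adhesion partners, GTPase regulators and cytoskeletal effectors. Of 64 compared, 22 were higher in mNRPCs, 17 lower and 25 within the limit, with a median log2 ratio of 0.28 against −0.12 over all genes, of which 24.5% were higher and 30.0% lower. With a common FPKM sum the order of these counts turned, to 17 higher and 24 lower of 66 (25.8% and 36.4%), beside 17.9% and 43.8% of all genes under that scaling. The 3 largest ratios belonged to Sdc1, a heparan sulfate proteoglycan, at 29.8 FPKM in mNRPCs and 0.335 in retina (4.53), Vasp, an actin regulator, at 89.1 and 8.22 FPKM (3.29), and Gpc1, a glypican that binds Slit, at 92.1 and 9.10 FPKM (3.20). The 3 smallest belonged to Kdr, a VEGF receptor, at 0.022 and 29.5 FPKM (−4.90), Dpysl4, a collapsin response mediator, listed at 0 and at 23.6 FPKM (−4.62), and Dscaml1, an adhesion molecule of retinal neurons, at 0.029 and 22.2 FPKM (−4.49). The small GTPases Rhoa (1.57) and Rac1 (1.52) were higher, and Cdc42 (0.63) lay within the limit. Neo1, a receptor related to Dcc, was at 25.5 and 15.6 FPKM (0.67), and its ligands Rgma (2.63) and Rgmb (1.5) were higher. These genes beyond the first and last 3 were chosen for naming after their values were seen.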

How the data were processed

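RNA sequencing of 1 mNRPC library and 1 retina library was compared. The authors deposited FPKM values, 1 row per RefSeq transcript version. The study's methods name Bowtie 2 for alignment and eXpress for FPKM estimation, whereas the submitters' processing notes list TopHat2 2.0.10 and GRCm38.p3, and the series text and the methods name different sequencers. Reads that fit several transcripts were divided by estimation, so single rows and near-identical genes are less certain than gene sums.

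The 106754 rows were matched by accession without version to RefSeq (GRCm38.p6) and, failing that, GENCODE M21. A symbol was found for 69.6% of rows, holding 93.2% of the deposited FPKM in mNRPCs and 89.9% in retina. Most unmatched rows were predicted transcripts, so the level of a member may leave some of its predicted rows out. Rows were summed per gene, and values below 1e-06 were read as 0. A pseudocount of 1 was added before log2, following the study. Groups were taken from the labels, and every value column belonged to one of the libraries. The FPKM sums were 616860 in mNRPCs and 432256 in retina. Depth was estimated from FPKM times length of genes with a single row of at least 1500 bp, at 443 rows in mNRPCs and 400 in retina; whole counts were not used here. Fragment numbers of single genes are estimates, and intervals cover counting error only.

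The rule for the members used gene symbols alone, but the families it names and the lists, including the ligand and receptor pairs, the motifs, the cell type markers and the signalling genes, were chosen with earlier results of these data known. Every member's level was considered, and in each family those with the highest level in either library and with the largest and smallest called log2 ratio were described in full. Alternatives were other pseudocounts, filters, thresholds and scalings, curated rows, the highest row of a gene, versioned accessions and, added after seeing the data, coding rows alone. Scripts ran in Python 3.11.15 with pandas 2.3.3, numpy 2.4.6, scipy 1.17.1 and matplotlib 3.10.9 and were tested on simulated data.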

Additional observations from a re-analysis of the deposited data

How the results depend on the processing

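Of 48 called members, 47 kept their call under rescaling to a common FPKM sum, trimmed mean scaling and upper quartile scaling, and Sema3b lost it with the common sum. That rescaling shifted the median log2 ratio of all genes by −0.62. Relative to all genes the members' median was 0.05 as deposited and −0.24 then. Of 63 members compared then, 23 were higher and 31 lower (36.5% and 49.2%), against 40% each of 60 as deposited. All genes stood at 17.9% and 43.8% then, and at 24.5% and 30.0% as deposited. At a minimum of 5 FPKM 24 of 42 members were higher and 13 lower (57.1% and 31.0%, against 26.9% and 25.9% of all genes), with a median of 1.61 against 0.04; fewer low members entered by construction. With a detection limit of 5 FPKM 19 members were detected in retina and 28 in mNRPCs (31.7% and 46.7% of those compared, against 66.1% and 61.5% of all genes). At a log2 threshold of 2, 14 were higher and 14 lower (23.3% each, against 11.2% and 14.1% of all genes). Other settings left the counts of members higher and lower within 1.5 times. The ligand ratio of 1.63 became 1.11 with the common sum, 1.71 with trimmed means, 2.04 with curated rows, 2.05 with versioned accessions and 1.39 without Efnb2. The receptor ratio of 1.81 became 1.23, 1.902, 2.38 and 2.48 in the same order, 1.75 with upper quartiles and 1.55 without Plxnb2. Curated rows lost the calls of Epha6, Sema3b, Sema6c and Unc5d, versioned accessions those of Epha6, Sema3b and Unc5d, and the highest row alone those of Epha6, Sema4a, Sema4d and Unc5d. Robo2, Sema4c, Sema4g and Sema5a gained a call with the highest row, and Efna2, Robo2, Sema4f and Sema4g with the common sum. Sema4c gained one with trimmed means and both smaller pseudocounts, and Efna2 and Sema4f with a pseudocount of 0.1. Sema3b changed sign with curated rows (−0.40) and versioned accessions (−0.01). The versioned match left out Efnb1, Ephb2, Sema4f and Slit2. The cause of these shifts was not tested. For the 37 members described in full, 221 of 332 values stayed within a 95% normal interval of the counting error on the log2 scale, 111 moved and none of the called ones reversed. Coding rows alone, chosen after seeing the data, changed no call. At 3 estimated fragments or fewer stood 20 members in mNRPCs and 7 in retina, levels that this depth hardly measures. No paired analysis was possible because there was a single library of each kind.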
